A study of Mus musculus with 16 samples.

Results

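The genes described here are 38 genes of microglia and tissue macrophages, the resident immune cells of the retina and its borders, measured in whole-retina RNA of mice with oxygen-induced retinopathy (OIR) and of control mice. They were matched by gene symbol among 43280 symbols in the count files. All 38 reached at least 10 counts in at least 2 libraries, the rule for keeping a member, and all 38 were among the 19905 genes tested. By role, 9 are homeostatic genes of resting microglia, 15 are expressed across myeloid cells, 11 are activated and phagocytic genes and 3 are tissue macrophage genes.

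The study has 16 libraries of C57BL/6J wildtype retina in 6 groups. OIR mice breathed 75% oxygen from postnatal day 7 (P7) to P12 and 21% oxygen afterwards, while control mice breathed 21% oxygen throughout. There are 2 control and 2 OIR libraries at P14 and 3 of each at P17 and at P30. The labels do not say how many animals or retinas gave each library.

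Microglia settle in the retina during development, survey it with fine processes, and help to prune synapses and shape vessels. Their resting state rests on transforming growth factor beta and colony-stimulating factor 1 receptor signals and is marked by genes such as P2ry12, Tmem119 and Sall1. After injury, lipid handling, lysosomal and phagocytic genes rise in microglia, while perivascular and border macrophages carry Mrc1, Cd163 and F13a1. In OIR, oxygen stops vessel growth, the return to room air leaves the central retina hypoxic, abnormal vessel tufts grow and then regress, and myeloid cells gather around these tufts. In bulk RNA, a change in the number of cells and a change in the RNA of each cell cannot be told apart.

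Libraries held 26077663 to 41716971 counts, and 24016 to 25420 symbols were detected in each. Some libraries stood apart in ways that touch the results. Transcripts of 20 lens genes made up 8.30%, 6.08% and 0.374% of counts in OIR P17 replicates 1, 2 and 3, against 0.0405% to 0.623% in the P17 controls, 3.54% to 8.89% at P30 and 0.00556% to 0.182% at P14. All 3 OIR libraries at P17 had Xist at 114 to 158 CPM (read counts scaled to library size) and the Y-linked gene Ddx3y at 0 to 0.0231 CPM, while all 3 P17 controls had Ddx3y at 25.8 to 33.3 CPM, so sex and OIR cannot be told apart within P17. Control P14 replicate 2 and OIR P30 replicate 2 also had high Xist, at 913 and 105 CPM. Control P14 replicate 2 was the highest library for 6 pigment cell genes singled out after their values were seen, among them Tyrp1 at 145 CPM against 10.5 to 34.1 CPM in the other 15 libraries. Defining microglial markers had reads in each library, with P2ry12 at 41 to 229 counts and Tmem119 at 58 to 235 counts.

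At P17, 5 days after the return to room air, microglia and macrophage genes were higher in OIR, and the rise was uneven across roles. Of the 38 genes, 27 were higher and 0 lower at an adjusted p under 0.05 (edgeR's quasi-likelihood test, Benjamini-Hochberg adjusted), against 7.81% of all tested genes higher and 6.76% lower. The median log2 fold change was 1.35 over the 38 genes and 0.00 over all tested genes. With a covariate for Y-linked expression, which differs between these groups, 2 of the 38 were called, against 1.01% of all tested genes higher. In that fit 84 of 19905 tested genes were lower. Every OIR library lay above every control library for 33 of the 38 genes and below for 0, against 15.9% and 16.6% of all tested genes. The median log2 fold change was 0.92 for homeostatic genes, 1.37 for general myeloid genes, 2.51 for activated and phagocytic genes and 1.88 for the 3 tissue macrophage genes. Mean log2(CPM + 0.5) of activated minus homeostatic genes was -0.84 to -0.65 in control libraries. In OIR replicates 1, 2 and 3 it was -0.56, -0.21 and 0.37. Replicate 1 was at -0.66 with 0.1 added (controls -1.16 to -0.95) and -0.42 with 2 added (controls -0.47 to -0.37). Tissue macrophage minus general myeloid genes averaged -1.85 in controls and -1.91 in OIR, and -2.51 and -2.21 with 0.1 added. These scores carry no test. In the same comparison, 6 of 10 endothelial genes were called higher (median log2 fold change 0.78, summed level 348 to 406 CPM in controls and 447 to 561 CPM in OIR) and 8 of 16 genes of retinal neurons and glia were called lower (median -0.31). Their part in the values of the 38 genes was not tested.

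**Figure D1:**
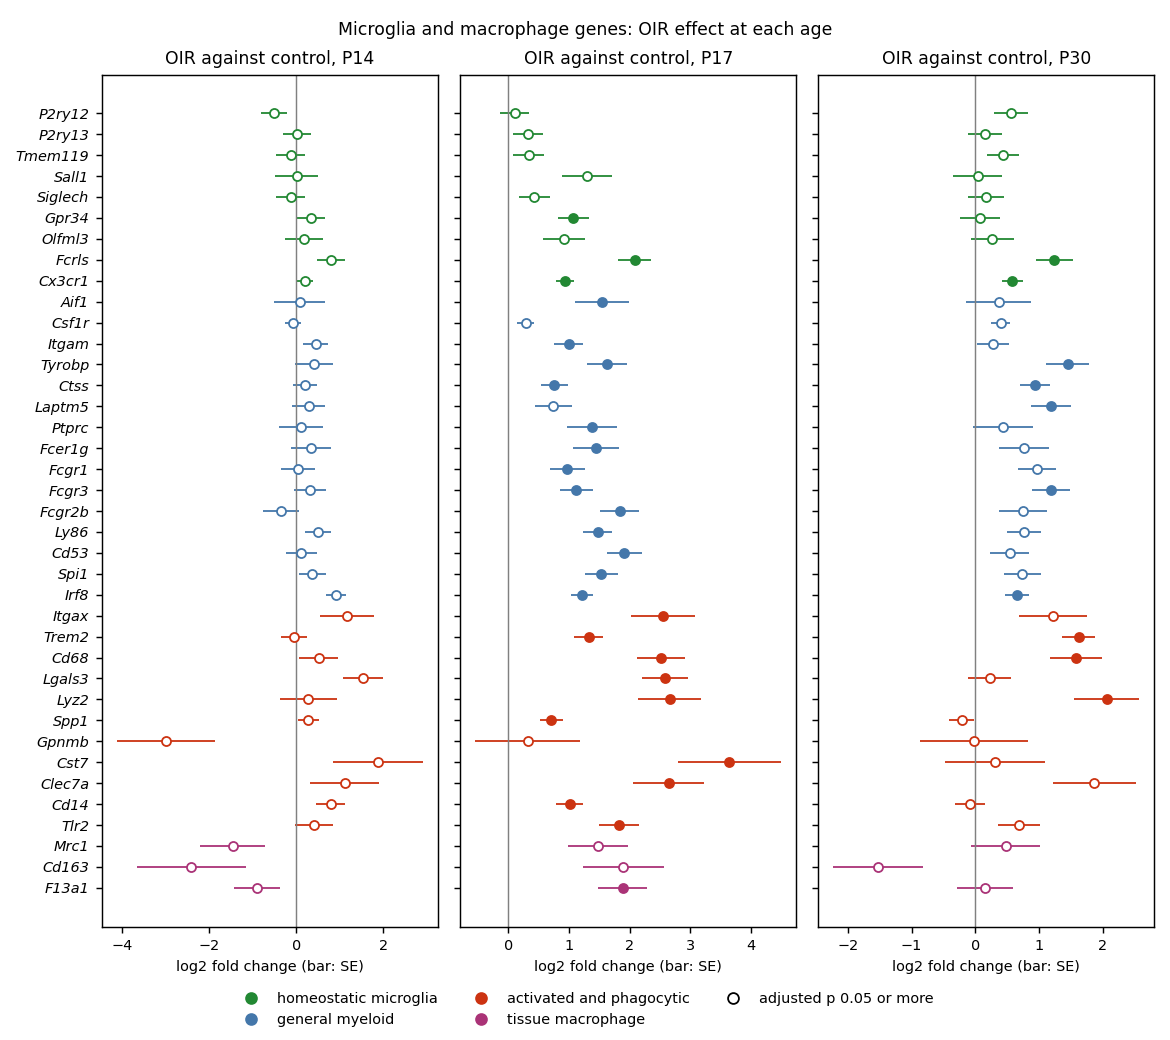
Log2 fold change of OIR against control for each of the 38 genes at P14, P17 and P30, with the standard error as a bar; colours give the role and filled points an adjusted p under 0.05. Filled points number 0 at P14, 27 at P17 and 10 at P30, and at P17 they take in 10 of the 11 activated and phagocytic genes but 3 of the 9 homeostatic genes.

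Of the 9 homeostatic genes, 3 rose at P17: Gpr34, a receptor for lysophosphatidylserine, Fcrls, an Fc receptor-like gene of mouse microglia, and Cx3cr1, the receptor for the neuronal chemokine fractalkine. P2ry12, the ADP receptor that guides microglial processes, was at 4.39, 5.73 and 3.67 CPM in the 3 controls and 6.09, 5.29 and 3.52 CPM in the 3 OIR libraries. Those ranges overlapped, and the log2 fold change was 0.11 with a standard error (SE) of 0.236 (edgeR adjusted p = 0.834). Tmem119, a membrane protein used to tell microglia from other macrophages, was at 2.38, 5.01 and 2.94 CPM in controls and 3.83, 3.88 and 5.30 CPM in OIR. The groups overlapped again, with a log2 fold change of 0.34 and an SE of 0.252 (edgeR adjusted p = 0.444). P2ry13, another purine receptor, and Siglech, a sialic acid-binding lectin, had log2 fold changes of 0.32 and 0.43 and did not pass.

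Fcrls was at 2.66, 4.09 and 3.39 CPM in the P17 controls and 11.7, 13.4 and 17.8 CPM in OIR. All OIR libraries were far above all controls, and the log2 fold change was 2.08 with an SE of 0.271 (edgeR adjusted p = 0.000102). Cx3cr1 was at 9.37, 12.2 and 9.31 CPM in controls and 19.3, 18.8 and 20.9 CPM in OIR, a log2 fold change of 0.93 with an SE of 0.155 (edgeR adjusted p = 0.000589). The homeostatic genes thus ran from no detectable difference in P2ry12 to a clear rise in Fcrls.

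Sall1, the transcription factor that maintains microglial identity, was at 1.55, 2.41 and 2.63 CPM in the P17 controls and 7.72, 5.64 and 2.75 CPM in OIR. Its log2 fold change of 1.29 (SE 0.413) did not pass (edgeR adjusted p = 0.0517). Olfml3, a secreted matrix protein of microglia that other retinal and ocular cells may also make, was at 16.6, 19.6 and 31.5 CPM in controls and 48.5, 55.2 and 23.8 CPM in OIR, with a log2 fold change of 0.92 (edgeR adjusted p = 0.105). For both genes the OIR libraries with the higher values were the 2 with lens shares of 8.30% and 6.08%. With the lens share as a covariate the log2 fold change was 0.38 for Sall1 and 0.35 for Olfml3, and without those 2 libraries it was 0.35 and 0.09. P2ry12 changed sign in the same fits, to -0.30 and -0.38, neither of which passed (edgeR adjusted p = 0.577 and 0.621), and Gpr34 kept 1.08 and 1.04 but lost its call (edgeR adjusted p = 0.0538 and 0.132). Leaving out both leaves 1 OIR library at P17, assumed to vary like the other groups, so the values without them compare that library with the controls. In that fit, the median log2 fold change was 0.35 for the 9 homeostatic genes. It was 1.64 for the 15 general myeloid genes and 2.84 for the 11 activated and phagocytic genes.

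General myeloid genes rose nearly as a block at P17, with 13 of 15 called and every OIR library above every control library for 15 of 15. Spi1, which encodes the myeloid transcription factor PU.1, was at 0.594, 0.687 and 0.519 CPM in controls and 1.74, 1.55 and 1.96 CPM in OIR. The log2 fold change was 1.53 with an SE of 0.267 (edgeR adjusted p = 0.000868). Irf8, an interferon regulatory factor that acts with PU.1 in myeloid cells, was at 3.23, 2.86 and 3.95 CPM in controls and 7.06, 6.86 and 9.40 CPM in OIR, a log2 fold change of 1.22 (edgeR adjusted p = 0.000218). Both factors were higher in every OIR library, with no overlap.

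Signalling adaptors and Fc receptors rose with them. Tyrobp, the adaptor DAP12 that carries the signal of TREM2, was at 3.10, 4.01 and 3.57 CPM in controls and 8.95, 11.0 and 12.9 CPM in OIR, a log2 fold change of 1.62 (edgeR adjusted p = 0.00409). Fcer1g, the common Fc receptor gamma chain, had a log2 fold change of 1.44, and the immunoglobulin receptors Fcgr1, Fcgr3 and Fcgr2b had 0.97, 1.12 and 1.83. Fcgr2b and Fcgr3 are related in sequence, so reads could be shared between them. The inhibitory receptor Fcgr2b was the highest of the 3 by fold change, at 1.06, 0.716 and 0.727 CPM in controls against 2.52, 3.00 and 3.47 CPM in OIR.

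The largest rise among general myeloid genes was in Cd53, a leukocyte tetraspanin, at 0.646, 1.26 and 0.623 CPM in controls and 2.75, 3.07 and 3.74 CPM in OIR. The log2 fold change of 1.91 had an SE of 0.288 (edgeR adjusted p = 0.000253). Ly86, which encodes MD-1, a partner of the toll-like receptor relative RP105, had a log2 fold change of 1.47, and the calcium-binding protein gene Aif1 (IBA1), the usual stain for microglia, had 1.54. The calls of Aif1, Ctss, Ptprc, Fcer1g, Fcgr1, Fcgr3 and, among activated genes, Spp1 were each lost without at least 1 of the 6 P17 libraries. Their highest edgeR adjusted p was 0.109 and 0.0799 for Aif1 and Fcer1g without control replicate 1, 0.119 and 0.0502 for Ctss and Fcgr3 without control replicate 3, and 0.152, 0.154 and 0.130 for Ptprc, Fcgr1 and Spp1 without OIR replicate 3. Also called were the leukocyte phosphatase Ptprc (CD45) at 1.37, the integrin Itgam (CD11b) at 0.99 and the lysosomal protease Ctss at 0.76.

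Csf1r, the receptor on which microglia depend for survival, was among the 2 general genes not called. It was at 25.6, 29.2 and 27.1 CPM in controls and 34.8, 30.6 and 34.3 CPM in OIR. The libraries did not overlap, but the log2 fold change was only 0.28 with an SE of 0.145 (edgeR adjusted p = 0.226). Laptm5, a lysosomal membrane protein of leukocytes, was the other, with a log2 fold change of 0.74 (edgeR adjusted p = 0.133).

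**Figure D2:**
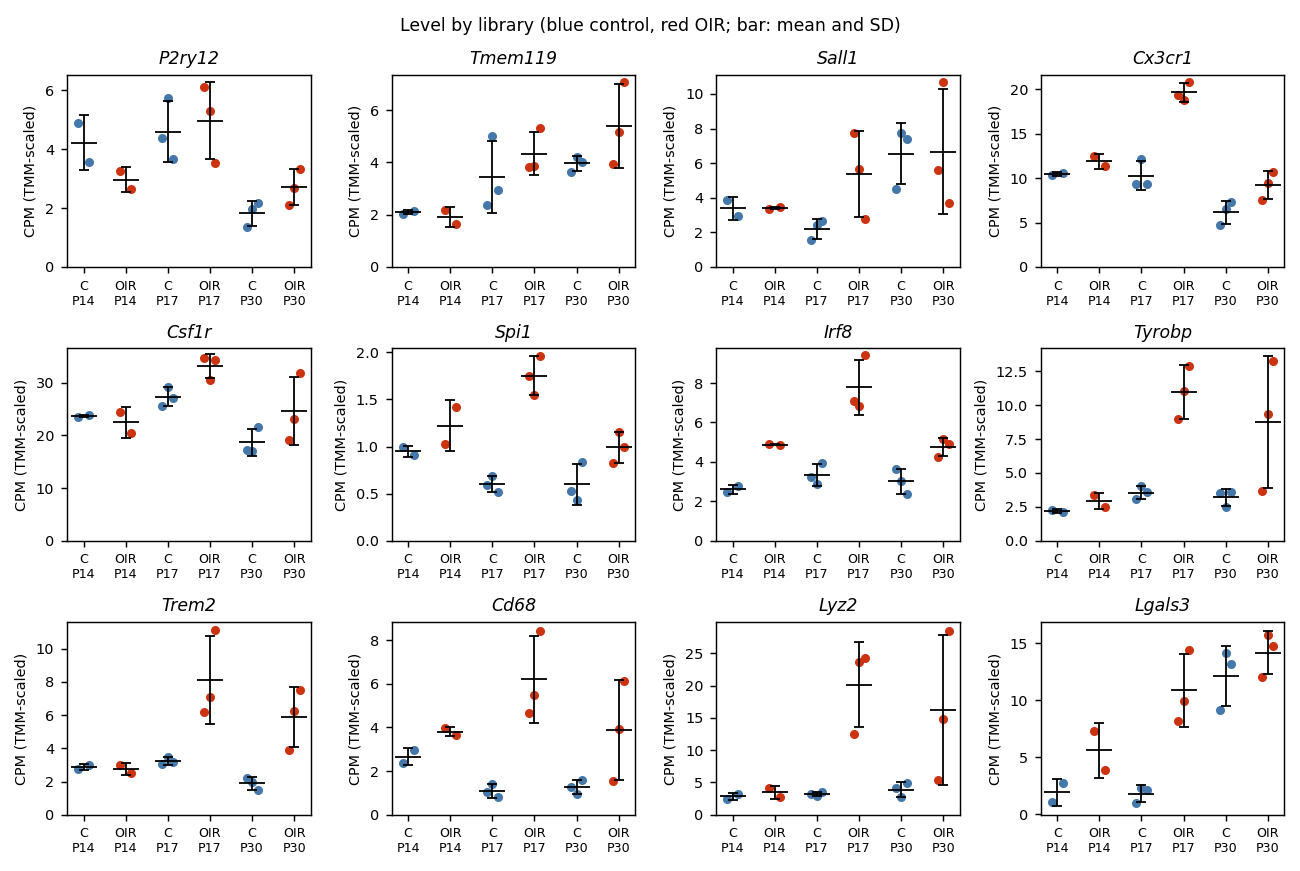
Level in CPM of 12 of the genes in every library (blue, control; red, OIR) with the group mean and SD; each panel has its own axis starting at 0. P2ry12 and Tmem119 overlap between control and OIR at P17, whereas Trem2, Cd68, Lyz2 and Lgals3 do not, and at P30 the OIR values of Lyz2 run from 5.37 to 28.5 CPM.

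Activated and phagocytic genes showed the steepest rise, with 10 of 11 called at P17. Lyz2, the macrophage lysozyme, was at 3.20, 2.92 and 3.50 CPM in controls and 12.6, 23.6 and 24.3 CPM in OIR, a log2 fold change of 2.66 with an SE of 0.513 (edgeR adjusted p = 0.00519). Reads of Lyz2 may be split with its near-identical paralog Lyz1, which was listed at 0 to 0.363 CPM. Cd68, a lysosomal membrane protein of phagocytes, was at 1.03, 1.40 and 0.796 CPM in controls and 4.66, 5.50 and 8.43 CPM in OIR, a log2 fold change of 2.51 with an SE of 0.393 (edgeR adjusted p = 0.000575). In both genes the lowest OIR library was several times the highest control.

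Trem2, the lipid-sensing receptor of phagocytic microglia, was at 3.05, 3.49 and 3.18 CPM in controls and 6.18, 7.07 and 11.1 CPM in OIR, a log2 fold change of 1.33 (edgeR adjusted p = 0.00114). Lgals3, the galactoside-binding lectin galectin-3, was at 1.01, 2.32 and 2.18 CPM in controls and 8.24, 9.93 and 14.5 CPM in OIR, a log2 fold change of 2.58 (edgeR adjusted p = 0.000575). OIR replicate 3 was the highest library for Trem2, Cd68 and Lgals3, and it was the library with the lowest lens share of the 3.

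Cst7, the protease inhibitor cystatin F, had the largest log2 fold change of the 38 genes at P17, 3.64 with an SE of 0.852 (edgeR adjusted p = 0.00736). Its levels were low, at 0, 0.0859 and 0.0346 CPM in controls and 0.372, 0.600 and 0.609 CPM in OIR, and no library in the series had more than 27 reads of it. Itgax (CD11c), an integrin of dendritic cells and activated microglia, was at 0.0775, 0.172 and 0.208 CPM in controls and 0.715, 0.508 and 1.42 CPM in OIR, a log2 fold change of 2.55. Clec7a, the beta-glucan receptor dectin-1, had a log2 fold change of 2.64 and the pattern recognition receptor Tlr2 1.82. Cd14, the co-receptor for lipopolysaccharide, and Spp1, the secreted protein osteopontin, moved less, at 1.01 and 0.71, and Spp1 is also made by retinal neurons.

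Gpnmb, a glycoprotein of phagocytes that pigment cells also make, was the exception. It was at 17.9, 35.5 and 19.8 CPM in the P17 controls and 17.0, 27.5 and 46.8 CPM in OIR, overlapping, with a log2 fold change of 0.32 (edgeR adjusted p = 0.869). At P14 it was at 14.1 and 239 CPM in the controls and 17.8 and 14.0 CPM in OIR. The control library at 239 CPM was replicate 2, where Pmel was at 497 CPM against 15.1 to 111 CPM in the other 15 libraries and Mlana at 24.1 CPM against 0.906 to 20.1 CPM. Without that library the log2 fold change of Gpnmb at P14 was 0.17, against -2.99 with it, and neither passed. The part of pigment cell RNA in the Gpnmb values was not tested.

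**Figure D3:**
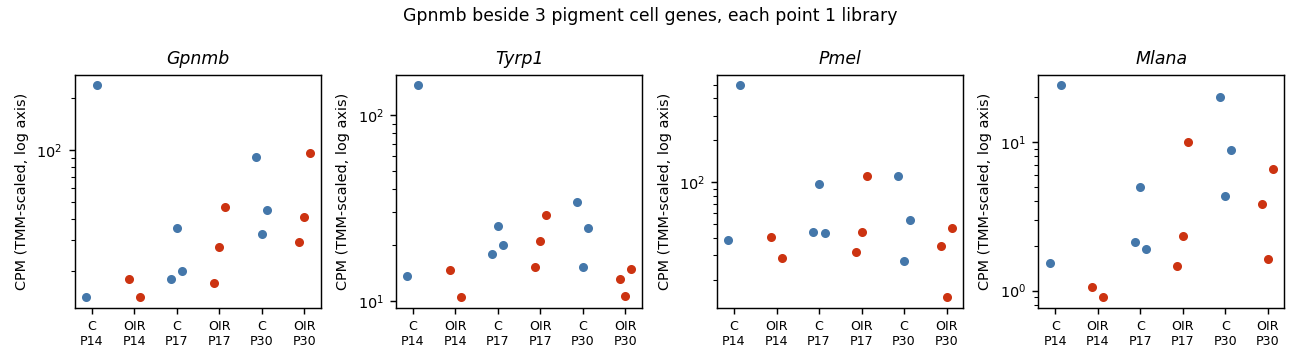
Level in CPM on a log axis of Gpnmb and the pigment cell genes Tyrp1, Pmel and Mlana, each point a library (blue, control; red, OIR). Control P14 replicate 2 is the highest library in all 4 panels, at 239 CPM for Gpnmb and 497 CPM for Pmel.

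Tissue macrophage genes were low throughout, yet each was higher in every OIR library than in every control at P17. F13a1, the coagulation factor XIII A chain of macrophages, rose, at 0.284, 0.286 and 0.692 CPM in controls and 1.40, 1.96 and 1.20 CPM in OIR, a log2 fold change of 1.88 with an SE of 0.404 (edgeR adjusted p = 0.0041). Mrc1, the mannose receptor CD206, was at 0.852, 0.601 and 0.831 CPM against 2.17, 2.36 and 1.83 CPM, and its log2 fold change of 1.47 did not pass (edgeR adjusted p = 0.0564). Cd163, the haemoglobin scavenger receptor, was at 0.129, 0.229 and 0.0692 CPM against 0.829, 0.439 and 0.406 CPM, with a log2 fold change of 1.90 (edgeR adjusted p = 0.066). The F13a1 call was lost without the 2 lens-rich OIR libraries, a fit that leaves 1 OIR library at P17.

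With the summed level of 4 Y-linked genes as a covariate, 2 of the 38 genes were called at P17, Fcrls (log2 fold change 2.27, edgeR adjusted p = 0.0149) and Cd53 (2.14, edgeR adjusted p = 0.0226). Of all tested genes, 1.01% were called higher in that fit, against 7.81% without the covariate. All 27 genes called without the covariate kept a log2 fold change above 0 with it, and 22 of the 27 kept at least 0.75 of their value. The largest losses were in Ptprc, from 1.37 to 0.03, Cst7, from 3.64 to 0.53, and Tlr2, from 1.82 to 0.85. The SE was 1.27 to 1.70 times as large with the covariate, which at P17 is aligned with the groups. Its slope came mainly from control P14 and OIR P30, the groups where replicate 2 differed from the rest in Y-linked expression. The retained values therefore do not show whether the P17 differences are separate from sex.

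To set the genes against each other, each level was divided by the summed CPM of the 15 general myeloid genes in the same library. That sum was 71.8 to 89.5 CPM in the P17 controls and 132 to 158 CPM in OIR. Its largest terms were Csf1r, Ctss and Laptm5, at means of 27.3, 18.2 and 11.8 CPM in the P17 controls. These had the smallest log2 fold changes of the 15 genes at P17, so the sum rose less than most of the 15 did. A gene above the sum, such as Trem2 with a log2 fold change of 1.33, could therefore lie below the general myeloid median of 1.37. Relative to the sum, 8 of the 11 activated and phagocytic genes were higher in every OIR library at P17 and 0 lower. Of all tested genes, 2.32% were higher and 73.1% lower. Of the 9 homeostatic genes, Fcrls was higher, P2ry12 and P2ry13 were lower and 6 overlapped. Of the tissue macrophage genes, Cd163 was higher and 2 overlapped. These are descriptions of chosen genes and carry no test.

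In these units P2ry12 was at 6.11%, 6.40% and 4.64% of the general myeloid sum in the P17 controls and 4.63%, 3.84% and 2.23% in OIR. Lyz2 was at 4.46%, 3.27% and 4.42% in controls and 9.56%, 17.2% and 15.4% in OIR, and Cd68 at 1.44%, 1.57% and 1.01% against 3.54%, 3.99% and 5.35%. The P2ry12 groups nearly touched, while those of Lyz2 and Cd68 were well apart. Cx3cr1 was at 12.8% ± 0.934 (SD, n = 3) in controls and 13.8% ± 0.759 (SD, n = 3) in OIR and overlapped. The rise of Cx3cr1 at P17 was thus near that of the sum, while its log2 fold change of 0.93 was below the general myeloid median of 1.37. Fcrls was higher in every OIR library at all 3 ages on this scale. At P14, 6 of the 11 activated and phagocytic genes were higher and Trem2 was lower in both OIR libraries, against 7.98% and 46.3% of all tested genes, and Fcrls was higher and P2ry12, Tmem119, Cd163 and F13a1 were lower. At P30, Trem2, Lyz2 and Fcrls were higher and Spp1, Tmem119 and Cd163 were lower in every OIR library, against 0.563% and 42.7% of all tested genes.

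**Figure D4:**
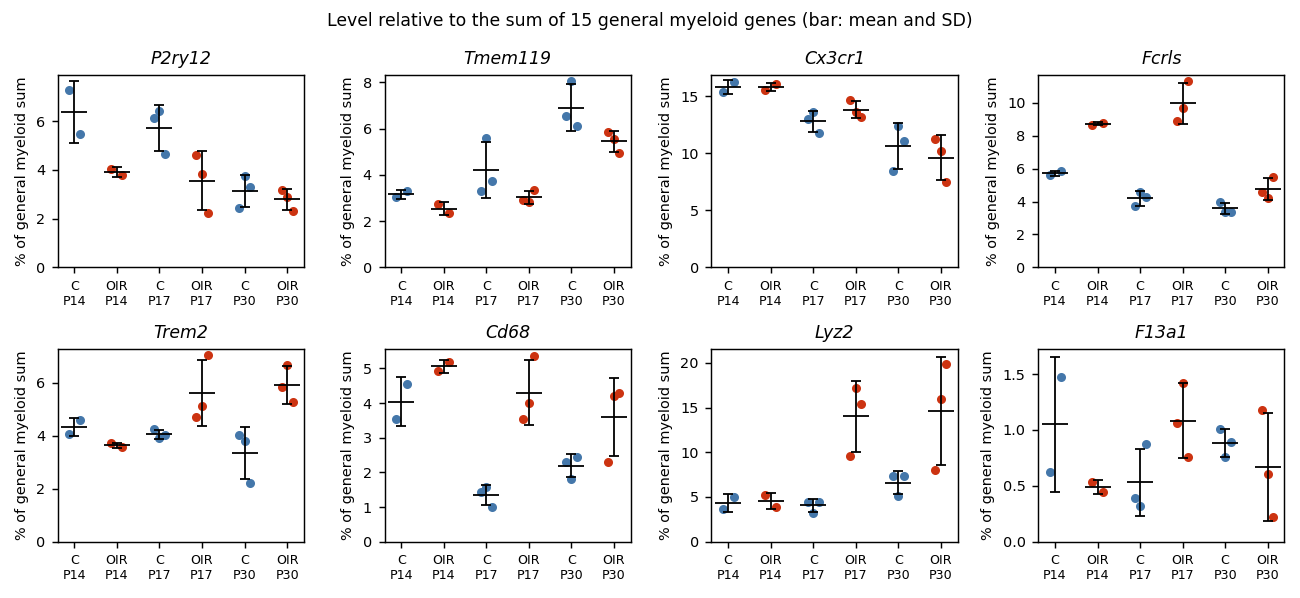
Level of 8 of the genes as a percentage of the summed CPM of 15 general myeloid genes in each library (blue, control; red, OIR), with the group mean and SD. At P17 P2ry12 lies lower in OIR, Cx3cr1 overlaps at means of 12.8% and 13.8%, and Fcrls, Trem2, Cd68 and Lyz2 lie higher in every OIR library.

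Promoter windows were searched because AP-1, a stress-responsive factor, and PU.1 and its partners are known regulators of macrophage genes. Those shown were picked for holding the pattern searched for AP-1, with P2ry12 added for contrast, and not for a shared rise. RefSeq windows on GRCm38.p6, the patch of the mm10 build, run from 250 bases before to 50 bases after the start site, and 32 of the 38 genes had a window. The pattern TGANTCA, used here for AP-1, was searched on both strands, and its N admits A and T as well as C and G. It was found in a window of 5 of 10 activated and phagocytic genes, against 8.97% of all 27025 genes with a window. It was found in 0 of 7 homeostatic, 0 of 12 general myeloid and 0 of 3 tissue macrophage genes. Matches had C or G at N in Cd68 (TGAGTCA), Itgax (TGAGTCA) and Gpnmb (TGACTCA). They had A or T at N in Trem2 (TGAATCA) and Cst7 (TGATTCA). Some genes have several windows, and a gene counts once if any of them holds the motif. Those 5 were Cd68 at chr11:69666121-69666420 (minus strand), Trem2 at chr17:48346151-48346450 (plus strand), Itgax at chr7:128129300-128129599 (plus strand), Gpnmb at chr6:49036268-49036567 (plus strand) and Cst7 at chr2:150570165-150570464 (plus strand). P2ry12 at chr3:59262936-59263235 (minus strand) is given for contrast and holds none of the motifs searched. Sequences run 5′ to 3′ on the gene's strand, and capitals mark motif matches, which in Cd68 are a pair of TGANTCA matches and, on the other strand, a match to the composite motif of PU.1 and an interferon regulatory factor.
Cd68: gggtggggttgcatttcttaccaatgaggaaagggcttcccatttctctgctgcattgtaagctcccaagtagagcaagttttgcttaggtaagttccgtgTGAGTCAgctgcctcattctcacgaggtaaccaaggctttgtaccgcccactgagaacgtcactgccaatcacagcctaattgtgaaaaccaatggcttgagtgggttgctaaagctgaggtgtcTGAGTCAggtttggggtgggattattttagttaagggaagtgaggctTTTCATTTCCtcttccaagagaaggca
Trem2: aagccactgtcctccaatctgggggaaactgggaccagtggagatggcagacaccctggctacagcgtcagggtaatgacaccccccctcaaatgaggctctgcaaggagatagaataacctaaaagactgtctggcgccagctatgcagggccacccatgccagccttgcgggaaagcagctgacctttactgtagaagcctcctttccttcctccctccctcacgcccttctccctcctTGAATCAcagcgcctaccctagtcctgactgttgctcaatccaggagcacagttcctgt
Itgax: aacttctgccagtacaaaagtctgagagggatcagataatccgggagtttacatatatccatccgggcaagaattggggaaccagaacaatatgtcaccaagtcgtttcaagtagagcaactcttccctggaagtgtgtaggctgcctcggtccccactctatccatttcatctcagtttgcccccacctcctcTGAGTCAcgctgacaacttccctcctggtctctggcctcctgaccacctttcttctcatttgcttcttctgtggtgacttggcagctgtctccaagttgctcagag
Gpnmb: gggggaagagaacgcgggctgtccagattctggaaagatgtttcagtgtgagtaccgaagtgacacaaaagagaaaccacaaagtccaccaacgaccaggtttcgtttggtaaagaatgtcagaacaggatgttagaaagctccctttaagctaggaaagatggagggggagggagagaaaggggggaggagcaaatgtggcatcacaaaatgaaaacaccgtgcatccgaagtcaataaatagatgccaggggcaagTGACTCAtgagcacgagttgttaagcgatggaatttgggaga
Cst7: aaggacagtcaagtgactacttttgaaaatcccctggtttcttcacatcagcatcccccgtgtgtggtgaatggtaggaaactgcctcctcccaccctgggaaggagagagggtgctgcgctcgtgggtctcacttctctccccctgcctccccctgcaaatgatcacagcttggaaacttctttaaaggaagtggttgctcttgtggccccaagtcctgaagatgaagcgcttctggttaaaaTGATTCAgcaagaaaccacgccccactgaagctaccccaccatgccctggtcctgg
P2ry12: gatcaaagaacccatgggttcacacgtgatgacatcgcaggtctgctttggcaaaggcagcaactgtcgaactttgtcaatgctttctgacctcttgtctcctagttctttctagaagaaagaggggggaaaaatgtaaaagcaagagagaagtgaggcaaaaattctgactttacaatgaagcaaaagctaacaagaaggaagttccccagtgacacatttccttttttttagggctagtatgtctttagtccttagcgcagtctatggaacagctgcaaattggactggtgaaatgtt
The PU.1 motif GAGGAAGT was found for 4 of 32 genes (Ctss, Cd53, Spp1 and F13a1), against 3.69% of all genes with a window. The composite motif of PU.1 and an interferon regulatory factor was found for 3 of 32 (Fcgr2b, Cd68 and Clec7a), against 3.16%, and the lysosomal gene E-box TCACGTGA for 1 of 32 (Siglech), against 1.12%. Gpnmb holds a TGANTCA match but was not called at any age. Of the 10 genes called in its role at P17, 6 had a window without a match or no window. A match is a description of letters in this window and not a binding site or a cause.

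At P14, 2 days after the return to room air, 0 of the 38 genes were called by edgeR, against 0.723% of all tested genes higher and 0.0955% lower. At an unadjusted p under 0.05 there were 5 of 38, against 1834 of 19905 tested genes. DESeq2 called 1 higher and limma-voom 0, against 1.4% and 0.608% of all tested genes higher. The OIR libraries were both above both controls for 19 genes and both below for 2, against 19.7% and 23.4% of all tested genes.

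Irf8 had the smallest p at P14 and was the gene called by DESeq2. It was at 2.45 and 2.75 CPM in controls and 4.88 and 4.87 CPM in OIR, with a log2 fold change of 0.90 and an SE of 0.227 (edgeR adjusted p = 0.0841). Lgals3 was at 1.10 and 2.78 CPM in controls and 7.34 and 3.93 CPM in OIR, with a log2 fold change of 1.53 (edgeR adjusted p = 0.21). The others were Fcrls at 0.80, Cd14 at 0.79 and Gpnmb at -2.99, the last resting on the pigment-rich control. P2ry12 was at 4.88 and 3.56 CPM in controls and 3.26 and 2.66 CPM in OIR, both lower, with a log2 fold change of -0.51 (edgeR adjusted p = 0.676). The 3 tissue macrophage genes had negative values at P14, with a median log2 fold change of -1.46, and Cd163 was at 0.0283 to 0.278 CPM in the 4 libraries. Their summed level was 0.783 and 2.43 CPM in control replicates 1 and 2 and 0.997 and 0.368 CPM in OIR replicates 1 and 2. The higher control was the pigment-rich one, and Cd163 had 2 reads in all in the OIR libraries.

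By P30, 10 of the 38 genes were higher in OIR and 0 lower (edgeR's quasi-likelihood test, Benjamini-Hochberg adjusted), against 4.96% of all tested genes higher and 3.63% lower. Of the 10, 9 had also been called at P17, and Laptm5 was called at P30 and not at P17. They were 2 of 9 homeostatic genes (Fcrls and Cx3cr1), 5 of 15 general myeloid genes (Tyrobp, Ctss, Laptm5, Fcgr3 and Irf8), 3 of 11 activated and phagocytic genes (Trem2, Cd68 and Lyz2) and 0 of 3 tissue macrophage genes. The median log2 fold change over the 38 genes was 0.55, against 0.01 over all tested genes. The groups did not overlap for 12 genes, all higher, against 15.4% of all tested genes higher and 14.3% lower.

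Trem2 was at 2.24, 1.99 and 1.46 CPM in the P30 controls and 3.92, 6.23 and 7.54 CPM in OIR, a log2 fold change of 1.62 with an SE of 0.256 (edgeR adjusted p = 0.00285). Every OIR library was well above every control. Lyz2 was at 4.11, 2.66 and 4.86 CPM in controls and 5.37, 14.9 and 28.5 CPM in OIR, a log2 fold change of 2.06 (edgeR adjusted p = 0.0334). Cd68 was at 1.28, 0.949 and 1.61 CPM against 1.55, 3.92 and 6.13 CPM, a log2 fold change of 1.58 (edgeR adjusted p = 0.0277). For Lyz2 and Cd68, OIR replicate 1 was near the controls, replicate 2 higher and replicate 3 highest. Tyrobp had the same order, at 3.52, 2.48 and 3.58 CPM in controls and 3.64, 9.37 and 13.3 CPM in OIR.

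The P30 calls leaned on single libraries. Without OIR replicate 3, 1 of the 38 genes was called, and the median log2 fold change of the 10 called genes went from 1.22 to 0.71. The count was 14 without OIR replicate 1, 6 without OIR replicate 2, 2 without control replicate 1, 1 without control replicate 2 and 4 without control replicate 3. Without control replicates 1, 2 and 3 in turn, 1.78%, 0.634% and 2.14% of all tested genes were called higher, against 4.96% with all libraries. The loss of calls without a control library was thus not particular to the 38 genes. Shares of all tested genes without each OIR library are not given here. Trem2 stayed called without each of these libraries in turn. A fit of the P30 libraries alone called 0, limma-voom called 2 and DESeq2 13, against 0.242%, 3.61% and 7.56% of all tested genes higher. An unadjusted p under 0.05 was found for 18 of the 38 genes, against 5319 of 19905 tested genes.

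Several phagocytic genes called at P17 did not pass at P30. Lgals3 was at 9.14, 14.1 and 13.2 CPM in controls and 12.1, 15.7 and 14.8 CPM in OIR, with a log2 fold change of 0.22 (edgeR adjusted p = 0.719). Cst7, Cd14 and Spp1 had log2 fold changes of 0.31, -0.08 and -0.21. The homeostatic genes Tmem119 and P2ry12 stood at 0.43 and 0.56 and did not pass. Cd163 was at 0.461, 0.184 and 0.840 CPM in controls and 0.190, 0.280 and 0 CPM in OIR, with a log2 fold change of -1.52 (edgeR adjusted p = 0.175).

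The size of the OIR effect was compared between ages directly. Between P14 and P17, 0 of the 38 differences were called by edgeR, as for 0% of all tested genes in either direction. An unadjusted p under 0.05 was found for 15 of the 38, against 1698 of 19905 tested genes. DESeq2 called 3 higher and limma-voom 0, against 0.628% and 0% of all tested genes higher. From P17 to P30 the effect became smaller for 5 genes and larger for 0, against 3.84% of all tested genes lower and 5.45% higher. The change in log2 fold change was -2.36 for Lgals3 (SE 0.506, edgeR adjusted p = 0.0127), -3.42 for Cd163 (SE 0.969, edgeR adjusted p = 0.0343), -1.37 for Cd53 (edgeR adjusted p = 0.0491), -1.10 for Cd14 (edgeR adjusted p = 0.0441) and -0.93 for Spp1 (edgeR adjusted p = 0.042). These comparisons share the P17 libraries with the P17 contrast. Lgals3 was called without each of the 16 libraries in turn. Cd163 lost the call without control P17 replicate 1 or 3, OIR P17 replicate 1, control P30 replicate 1 or 3, or OIR P30 replicate 1. Cd53, Cd14 and Spp1 each lost it without most of the P17 and P30 libraries, and over all alternatives the edgeR, DESeq2 or limma adjusted p ran from 0.0166 to 0.134 for Cd53, 0.0237 to 0.118 for Cd14, 0.000152 to 0.149 for Spp1 and 0.000859 to 0.195 for Cd163. With the Y-linked covariate 0 of the 5 were called.

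Control retina also differed between ages, though counts of these genes were near or below the shares over all tested genes. From P14 to P17 the control groups did not overlap for 11 genes that were higher and 4 that were lower, against 29.9% and 32.7% of all tested genes, and from P17 to P30 for 6 higher and 9 lower, against 22.8% and 21.8%. Between P14 and P17 in controls, 3 of the 38 genes rose and 1 fell, against 18.3% of all tested genes higher and 21.9% lower. Cd14 rose by a log2 fold change of 1.68 (edgeR adjusted p = 0.000289), Olfml3 by 1.15 and Spp1 by 0.92, and Cd68 had -1.30 (edgeR adjusted p = 0.0268). Between P17 and P30 in controls, 4 rose and 6 fell, against 14.9% and 13.4%. P2ry12, at 4.39, 5.73 and 3.67 CPM at P17, was at 1.35, 1.96 and 2.15 CPM at P30, a log2 fold change of -1.34 (SE 0.254, edgeR adjusted p = 0.000856). Cx3cr1, Csf1r, Ly86, Fcgr3 and Trem2 fell as well, with log2 fold changes of -0.74, -0.55, -0.94, -0.81 and -0.77.

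The 4 that rose in controls to P30 were Lgals3, by a log2 fold change of 2.74 (edgeR adjusted p = 0.000181), Sall1 by 1.59, Olfml3 by 1.26 and Spp1 by 0.69. Lgals3 went from 1.01, 2.32 and 2.18 CPM to 9.14, 14.1 and 13.2 CPM, a range that overlaps that of OIR at P17. The lens share of counts was 0.0405% to 0.623% in the P17 controls and 5.78% to 8.89% in the P30 controls. With that share as a covariate, Lgals3, Spp1, P2ry12 and Cx3cr1 were still called, while 6 calls were lost, those of Sall1, Olfml3, Csf1r, Ly86, Fcgr3 and Trem2.

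Ligands of the member receptors differed among themselves at P17. Csf1, a ligand of Csf1r, was at 5.16, 5.13 and 7.10 CPM in controls and 10.8, 11.2 and 11.8 CPM in OIR, a log2 fold change of 0.97 (edgeR adjusted p = 0.000452), and at P30 it was 0.53 higher on the log2 scale (edgeR adjusted p = 0.0426). Il34, the other ligand of Csf1r and a neuronal product, was at 15.5 to 16.8 CPM against 17.2 to 19.5 CPM, with a log2 fold change of 0.20 (edgeR adjusted p = 0.293). Cx3cl1, the ligand of Cx3cr1, had a log2 fold change of -0.11 (edgeR adjusted p = 0.404). Tgfb1, which maintains the resting state, was higher at P17 by 1.34.

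Further genes of the same roles were tested at P17, where 7.81% of all tested genes were higher. Of 16 other homeostatic microglia genes, 4 rose, 0 fell and 12 did not pass, with a median log2 fold change of 0.56. The 16 include Crybb1, a beta-crystallin gene that was not among the 20 lens genes. Among those that rose, the nucleotide receptor gene P2ry6 rose by a log2 fold change of 1.20, the inhibitory receptor gene Lair1 by 0.57 and the Golgi membrane protein gene Golm1 by 0.62. Of 20 other activated and lysosomal genes, 13 rose and 1 fell, with a median of 0.71, against 7.81% of all tested genes higher and 6.76% lower. Cd52, a small surface glycoprotein of leukocytes, rose by 2.15 and the scavenger receptor Msr1 by 3.52, while the growth factor gene Igf1 had -0.54. The tetraspanin Cd9 was the sole gene of that list called at all 3 ages, with log2 fold changes of 0.70, 0.98 and 0.47.

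Of 9 tested genes of border and perivascular macrophages, 3 rose at P17 (Pf4, Stab1 and Folr2, at 2.15, 1.56 and 1.94) and Lyve1 fell, at -0.74, against 7.81% of all tested genes higher and 6.76% lower. Stab1 and Lyve1 are also expressed by endothelial cells. Tnf had no read in the 5 control libraries of P14 and P17 and was called higher in OIR at both ages, at 0.631 and 0.425 CPM at P14 and 0.20, 0.0924 and 0.226 CPM at P17. H2-Ab1, a class II antigen presentation gene, was at 1.10 and 1.29 CPM in P14 controls and 10.1 and 8.01 CPM in OIR, a log2 fold change of 2.92 (edgeR adjusted p = 0.0042), and rose by 2.53 at P17. Of 8 cell division genes, 2 were called higher at P14, against 0.723% of all tested genes, and 7 at P17, against 7.81%.

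Markers of blood-borne leukocytes were low in level, and some were higher in OIR at P17. The summed level of 8 monocyte genes was 53.9 to 57.2 CPM in P17 controls and 161 to 246 CPM in OIR, of which Fn1, a matrix gene of many cells, made up 43.4 to 51.3 CPM and 144 to 230 CPM. Of the 4 monocyte genes tested, 1, Fn1, was called higher, against 7.81% of all tested genes, and the defining monocyte receptor Ccr2, not tested, was at 0 to 0.138 CPM in P17 controls and 0.143 to 0.609 CPM in OIR. Chil3 was at 0 to 0.0454 CPM in all 16 libraries. The 10 neutrophil genes summed to 40.9 to 41.7 CPM in P17 controls and 37.8 to 41.6 CPM in OIR, of which Mmp9 made up 40.7 to 41.4 CPM and 36.6 to 40.8 CPM. Of the 3 neutrophil genes tested, 1 was called higher, S100a9, a calcium-binding protein of neutrophils and monocytes, at 0 to 0.115 CPM in controls and 0.370 to 2.16 CPM in OIR. Its partner S100a8 was at 0 to 0.0692 CPM against 0 to 0.338 CPM. The 14 lymphocyte and mast cell genes summed to 0.623 to 1.40 CPM against 1.77 to 2.1 CPM. Of the 4 tested, 1 was called higher, the B cell receptor gene Cd79b, at 0.103 to 0.312 CPM in controls and 0.658 to 0.744 CPM in OIR, while the T cell gene Cd3e was at 0 to 0.0286 CPM in both groups. Red blood cell genes summed to 231 to 420 CPM in controls and 500 to 1786 CPM in OIR at P17. The part of these cells in the changes of the 38 genes was not tested.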

How the data were processed

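Retina mRNA was made into Ion Torrent libraries and sequenced on an Ion Proton, per the labels' protocols. The same protocols name Torrent Suite 5.4.0, alignment to mm10 with STAR and then Bowtie2, and counting with HTSeq. For the annotation, aligner versions and strand setting, values were not given in the sources used here, so reads of overlapping genes cannot be assigned by strand. The deposited values are raw counts per gene symbol, which the authors did not normalize.

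The fits used edgeR 4.0.16 (R 4.3.3). The filter was filterByExpr (minimum count 10, minimum total 15), libraries were scaled by TMM, and all 16 libraries entered a robust quasi-likelihood fit of 6 group means with 10 residual degrees of freedom. p-values were adjusted by Benjamini-Hochberg over 19905 genes and called under 0.05. CPM uses the TMM-scaled library size, and an SE is the size of the log2 fold change over the square root of F. Levels relative to the general myeloid sum used no pseudocount and carry no test. Groups came from sample titles. Nothing in the labels says that replicates came from separate animals, so p-values measure the spread between these libraries, which may be technical. No pair of replicates was within sampling noise (chi-square over degrees of freedom 13.6 to 199). Steps were tested on simulated data.

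The 38 genes, their roles and the other lists were chosen with earlier results of these data known. All 38 could be named; from each other list up to 4 genes with the smallest p at each age, and always Csf1, Il34, Cx3cl1 and Lyz1. Lens, pigment, sex-linked and leukocyte genes outside that rule were named after their values were seen. Alternatives were RLE and total-count scaling, no filter and a filter of 50 counts, DESeq2 1.42.0, limma-voom (limma 3.58.1), a replicate block, fits of the compared groups alone, an adjusted p under 0.01, lens and Y-linked covariates, and leaving out libraries. Promoter windows came from RefSeq tables; protein sequences were not analysed here. Some results for the other homeostatic genes are not reported here.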

Additional observations from a re-analysis of the deposited data

Results flagged for a closer look

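Under a direct test of the difference (edgeR's quasi-likelihood test, Benjamini-Hochberg adjusted), the OIR effect on 5 of the 38 genes was smaller at P30 than at P17. The change in log2 fold change was -2.36 for Lgals3, -3.42 for Cd163, -1.37 for Cd53, -1.10 for Cd14 and -0.93 for Spp1. For Lgals3 the effect was 2.58 at P17 and 0.22 at P30, and controls rose from 1.01 to 2.32 CPM at P17 to 9.14 to 14.1 CPM at P30. For Cd163 the effect was 1.90 at P17 and -1.52 at P30, neither of which passed at its own age. For Spp1 and Cd14 the effects at P30 were -0.21 and -0.08.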

How the results depend on the processing

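No called log2 fold change changed sign under any alternative run. Members called higher at P17 numbered 27, 22 to 31 without 1 library, and 2 with the Y-linked covariate, where 1.01% of all tested genes were higher. They numbered 23 with the lens covariate, 20 at an adjusted p under 0.01 and 33 with no filter. Of all tested genes, 5.54%, 4.25% and 5.85% were higher in those 3 runs. In every such run 0 were lower. At P14 the count was 0 in each direction without each library, where leaving out a P14 library leaves 1 in its group with the spread taken from the other groups. It became 3 higher and 1 lower with no count filter and 1 higher with DESeq2, where 1.45% and 1.4% of all tested genes were higher. At P30 the 10 higher became 2 with limma-voom, 0 in the fit of the compared groups, 1 at an adjusted p under 0.01, 5 with the Y-linked covariate and 1 to 14 without 1 library. None were lower. Of all tested genes, 3.61%, 0.242%, 0.708% and 3.66% were higher with limma-voom, the compared groups, 0.01 and the Y-linked covariate.

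For the difference between P14 and P17, 0 higher became 14 with no filter, 3 with DESeq2 and 0 to 1 without 1 library. For P17 to P30, the 5 smaller effects became 11 with no filter, 3 with the fit of compared groups, 0 at an adjusted p under 0.01, 3 with the lens covariate, 2 without the lens-rich libraries (1 OIR library left at P17), 0 with the Y-linked covariate and 1 to 7 without 1 library. In controls from P14 to P17, the 3 higher became 7 with no filter, 6 with compared groups and 1 to 5 without 1 library; the 1 lower became 3, 2 with DESeq2, 0 at 0.01, 0 with the Y-linked covariate and 0 to 1 without 1 library. In controls from P17 to P30, the 4 higher became 1 at 0.01, 2 with the lens covariate and 2 to 5 without 1 library, and the 6 lower became 10 by total counts, 3 with limma-voom, 3 at 0.01, 2 with the lens covariate and 3 to 9 without 1 library. With no filter and with DESeq2, 1.28% and 0.628% of all tested genes had a larger effect at P17 than at P14. The effect was smaller at P30 than at P17 for 1415 of 34977 tested genes with no filter. It was smaller for 683 of 18854 with compared groups and 495 of 19905 with the lens covariate. In controls to P17, 10.1% were higher with no filter and 19.6% with compared groups. In controls to P30, 7.42% were higher and 1553 of 19905 lower with the lens covariate. The cause was not tested.

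Replicate numbers did not pair the libraries: the deviations of same-numbered libraries correlated at -0.11 at P14, -0.30, 0.06 and -0.27 at P17, and -0.06, 0.04 and 0.09 at P30. With the replicate block, 0 genes were called at P14, 27 at P17 and 10 at P30, and 3 smaller effects from P17 to P30. Of all tested genes, 0.658%, 7.28% and 4.41% were higher at P14, P17 and P30 in that fit, and 676 of 19905 had a smaller effect. A crossed pairing at P14, chosen after seeing the data, gave 1 called gene. Low levels limit Cst7, Itgax, Cd163 and Mrc1, and 3 counts is the floor for a count of 0; both cover counting error only.

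Log2 fold changes that did not pass took, for some genes, the other sign under some alternatives and did not pass there. At P14 these were P2ry13 -0.11, Siglech 0.072, Aif1 -0.22, Fcgr1 -0.070 and Trem2 0.028 with the Y-linked covariate, Sall1 -0.0019 with RLE scaling, Sall1 -0.0025 with DESeq2, Sall1 -0.011 with the replicate block, Ptprc -0.24, Fcgr1 -0.11 and Spp1 -0.011 with the lens covariate, Fcgr1 -0.086 with limma-voom. At P17 these were P2ry12 -0.30 with the lens covariate, P2ry12 -0.38 without the lens-rich libraries, Gpnmb -1.56 with the Y-linked covariate. At P30 these were Sall1 -0.0045 with total-count scaling, Sall1 -0.032 and Cst7 -0.32 with limma-voom, Sall1 -0.040 with the replicate block, Sall1 -0.20, Ptprc -0.20, Lgals3 -0.021, Cst7 -1.52 and F13a1 -0.041 with the Y-linked covariate. Without 1 library, the log2 fold changes that took either sign ranged as follows, at P14 P2ry13 -0.25 to 0.32, Tmem119 -0.35 to 0.061, Sall1 -0.19 to 0.21, Siglech -0.53 to 0.19, Aif1 -0.11 to 0.27, Csf1r -0.22 to 0.043, Ptprc -0.65 to 1.00, Fcer1g -0.0016 to 0.77, Fcgr1 -0.66 to 0.53, Fcgr2b -0.99 to 0.42, Cd53 -0.17 to 0.46, Trem2 -0.18 to 0.057, Lyz2 -0.053 to 0.55, Gpnmb -3.91 to 0.17, Tlr2 -0.14 to 1.29, at P17 P2ry12 -0.064 to 0.30, Gpnmb -0.13 to 0.70, at P30 P2ry13 -0.018 to 0.43, Sall1 -0.48 to 0.30, Gpr34 -0.12 to 0.23, Aif1 -0.091 to 1.57, Itgam -0.10 to 0.46, Ptprc -0.16 to 0.73, Gpnmb -0.69 to 0.51, Cst7 -1.18 to 0.87, Cd14 -0.21 to 0.10, F13a1 -0.19 to 0.40.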
